A study of Mus musculus with 8 samples.

Results

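Chemokine ligands are the small secreted proteins that leukocytes follow, and the 51 probe sets that measure them were examined in splenic dendritic cells of wild type and RAG2-deficient mice. A probe set is a group of short probes on the array that together report the transcript of 1 gene. Members were all probe sets whose only platform gene name was Ccl, Cxcl, Cx3cl or Xcl with a number, which gave 51 of the 45101 probe sets on the array and 33 genes. Chemokine ligands with other names, such as Pf4 and Ppbp, fell outside this rule.

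The cells were CD8α+ and CD8α- dendritic cells sorted from the spleens of untreated female C57BL/6 mice. Each subset was taken from wild type mice and from RAG2-/- mice, with 2 arrays in each of the 4 groups and 8 arrays in all. The sample labels give an age of 10 weeks for every array, and the series text a span of 8 to 10 weeks. RAG2 deletion is germline in this strain and leaves the host without mature T and B lymphocytes, while its NK cells and myeloid cells remain. The labels do not say how many mice were pooled or whether the replicate arrays came from separate mice, so p-values may measure technical spread.

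Chemokines bind G protein-coupled receptors on leukocytes and are grouped as CC, CXC, CX3C and XC by the spacing of their first cysteines. Some, such as Ccl19, Ccl21, Cxcl12 and Cxcl13, are made constantly and place cells within lymphoid tissue, mostly by stromal cells. Others are induced by interferons or microbial signals and draw effector cells, and dendritic cells use them to bring T cells to the antigen they present. CD8α+ dendritic cells are the cross-presenting subset of the mouse spleen, whereas CD8α- cells favour presentation to CD4+ T cells.

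Levels are log2 expression values as the authors deposited them, on which a difference of 1 is a doubling. A probe set was taken as on, and was tested, when it reached log2 5 on at least 2 of the 8 arrays. The sort was visible in Cd8a, at 11.73 to 12.51 on the CD8α+ arrays and 5.80 to 7.70 on the CD8α- arrays, and all 8 conventional dendritic cell markers checked (Itgax, Flt3, Zbtb46, Cd74, H2-Aa, H2-Ab1, Ciita and Batf3) were above 5 on every array. The knockout arrays shared a lowest value of 2.23 that the wild type arrays lacked. Among tested probe sets, 3.98 to 4.11% held the same value to the last digit on the replicate arrays of a knockout group and 0.712 to 0.773% did so in a wild type group. No tested probe set did so between genotypes. Processing of the arrays and genotype cannot be told apart. Neutrophil transcripts stood out on knockout CD8α+ array 1 and knockout CD8α- array 2, where S100a8 read 9.81 and 10.69 against 3.35 to 5.19 on the other 6 arrays.

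Only 11 of the 51 probe sets, from 8 of the 33 genes, were on. That is 21.6% of the members, while 41.8% of the 34958 probe sets with a single gene name were on. The genes were the CC ligands Ccl3, Ccl5, Ccl6, Ccl9 and Ccl22 and the CXC ligands Cxcl9, Cxcl10 and Cxcl16. Above 5 on all 8 arrays were 8 probe sets, those of Ccl5, Ccl6, Ccl9, Cxcl10 and Cxcl16 and the brighter probe set of Cxcl9. Counting a gene as on in a group when a probe set was above 5 on both arrays, each group had 7 genes on. They were the same 7 in wild type CD8α-, wild type CD8α+ and knockout CD8α+ cells, and knockout CD8α- cells had Ccl3 in place of Ccl22. Markers of CD8α+ dendritic cells (Cd8a, Xcr1, Itgae, Ly75, Tlr3, Cd36, Irf8, Cadm1 and Naaa) were summed on each array. The log2 of their summed level was 11.63 and 12.35 in wild type CD8α- and 12.55 and 14.09 in knockout CD8α- cells. On the CD8α+ arrays it was 15.94 to 16.56. Their part in the CD8α- readings of the ligands was not tested.

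The other 25 genes had no probe set on. Among the CC ligands these were Ccl1, Ccl2, Ccl4, Ccl7, Ccl8, Ccl11, Ccl12, Ccl17, Ccl20, Ccl24, Ccl25, Ccl27a and Ccl28, among the CXC ligands Cxcl1, Cxcl2, Cxcl3, Cxcl5, Cxcl11, Cxcl12, Cxcl13, Cxcl14, Cxcl15 and Cxcl17, and besides them Cx3cl1 and Xcl1. The list includes the monocyte attractants Ccl2 and Ccl7, the neutrophil attractants Cxcl1, Cxcl2, Cxcl3 and Cxcl5 and the stromal ligands Cxcl12 and Cxcl13. These genes and the second Ccl9 probe set made up the 40 untested probe sets, which read 1.24 to 4.90 on the wild type arrays. On the knockout arrays 26 of the 40 stood at the shared lowest value on all 4. A low reading does not show that a transcript is absent, since a probe set can fail. Ccl9 is a case in the data, with its second probe set (1448898_at) between 2.23 and 4.51 where the first read 5.07 to 11.37.

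**Figure D1:**
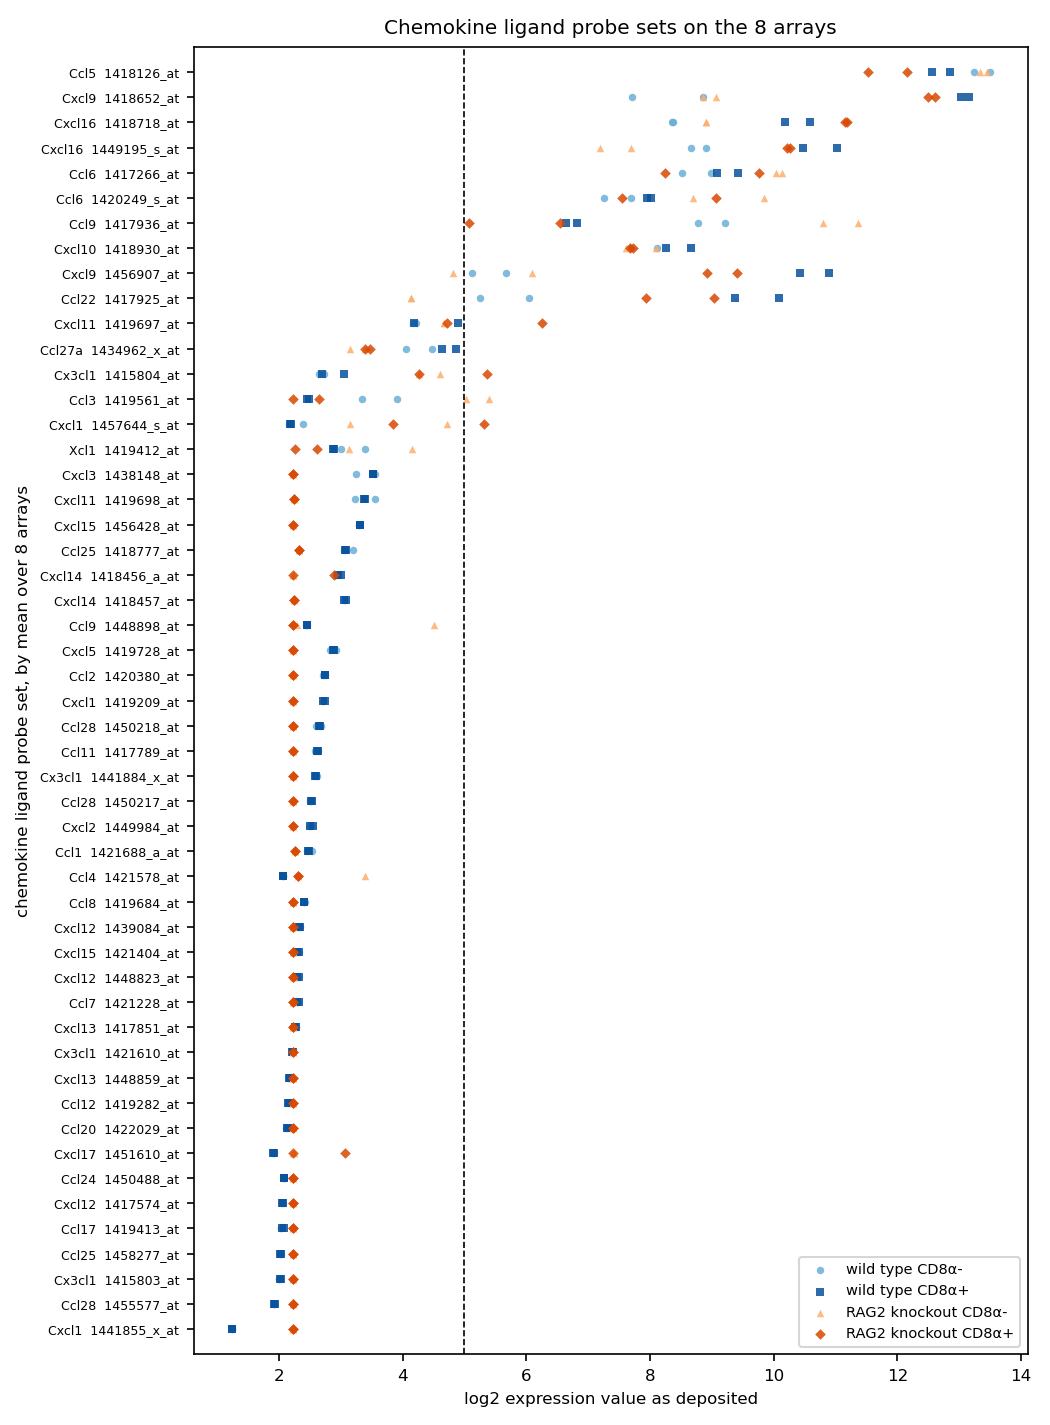
Log2 value (horizontal axis) of each of the 51 chemokine ligand probe sets (vertical axis, ordered by mean over the arrays) on each of the 8 arrays, coloured by group, with a dashed line at log2 5. The 10 probe sets with the highest means, from 7 genes, lie to the right of the line on most arrays, and most others lie in a narrow column near the lowest values.

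A few probe sets lay close to the line. Just inside it was Ccl3, on only through the knockout CD8α- arrays at 5.02 and 5.39. Just outside it were 3 probe sets above 5 on a single array. Cxcl11, an interferon-induced Cxcr3 ligand, read 6.26 on knockout CD8α+ array 1 and 4.17 to 4.90 elsewhere. Cx3cl1, the membrane-bound ligand of Cx3cr1, read 5.37 on that array and 2.65 to 4.61 elsewhere. Cxcl1, a neutrophil attractant, read 5.32 there and 2.17 to 4.72 elsewhere. The other probe sets of Cxcl11, Cx3cl1 and Cxcl1 read 2.23 to 2.24 on that array. All 3 single readings fell on the same array, knockout CD8α+ array 1, which also carried neutrophil transcripts, and the part of those transcripts in them was not tested. The highest reading among the 37 probe sets with no array above 5 was 4.86, for Ccl27a, a skin-associated Ccr10 ligand, in a wild type CD8α+ sample.

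Most of the tested chemokine ligand probe sets differed between CD8α+ and CD8α- cells of the wild type. Cxcl9, Ccl22 and Cxcl16 were higher in CD8α+ cells, by 28.1-fold, 16.8-fold and 4.06-fold on the probe set with the highest mean over all arrays. The other probe sets gave 38.2-fold for Cxcl9 and 3.88-fold for Cxcl16, the latter being the brighter Cxcl16 probe set within wild type. Ccl9 was lower in CD8α+ cells by 4.77-fold. Of the 11 probe sets 7 were called (limma, adjusted p under 0.05), 5 higher and 2 lower, the lower ones being Ccl9 and Ccl3. Ccl3 was below 5 on all 4 wild type arrays. With values below 5 set to 5 the count was 6, against 14.3% of all probe sets tested. Over all 14609 probe sets tested, 14.1% were called, 7.85% higher and 6.26% lower. The median size of the log2 difference, signs aside, was 1.95 for the members and 0.34 for all probe sets tested.

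In the knockout, of the 11 probe sets 8 were called, 5 higher and 3 lower in CD8α+ cells, against 17.6% of all probe sets tested, 8.72% higher and 8.85% lower. The 5 higher ones were the probe sets of Cxcl9, Ccl22 and Cxcl16, as in wild type. Cxcl9 was 12.0-fold and Cxcl16 4.79-fold higher on their brighter probe sets. The other Cxcl16 probe set gave 6.97-fold. On the brighter Cxcl16 probe set both knockout CD8α- arrays held the same value, 8.91, so that group shows no measured spread. The members called lower were Ccl9, Ccl5 and Ccl3. Ccl3 passed the filter only through the higher group of this comparison. With values below 5 set to 5 the count was 7, against 17.1% of all probe sets tested. The arrays of the subsets did not overlap for 11 of 11 members in wild type and 9 of 11 in the knockout, where the same held for 58.7% and 55.9% of all probe sets tested. The 2 comparisons use separate arrays but share 1 estimate of each probe set's spread.

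**Figure D2:**
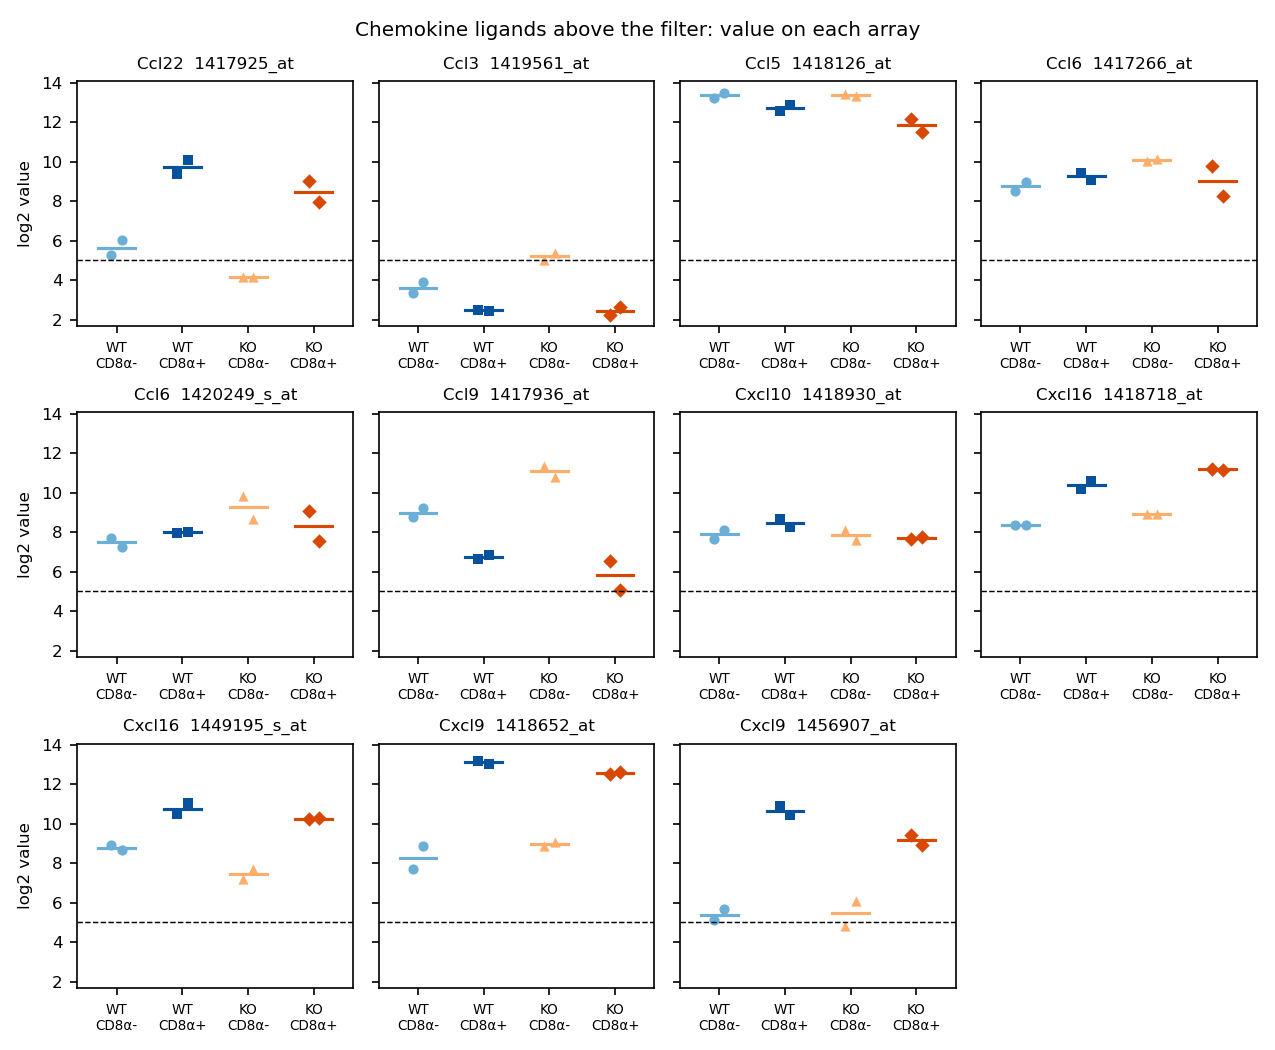
Log2 value (vertical axis) of the 11 tested probe sets on each array, by group (horizontal axis), with 2 points and their mean as a bar per group and a dashed line at log2 5. Cxcl9, Ccl22 and Cxcl16 are higher in the CD8α+ groups of each genotype, Ccl9 is higher in the CD8α- groups, and Cxcl10 reads 7.62 to 8.67 throughout.

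Cxcl9 had the largest rise in wild type CD8α+ cells among the members. It is induced by interferon-gamma and attracts activated T cells and NK cells through Cxcr3. Its brighter probe set (1418652_at) read 7.71 and 8.85 on the wild type CD8α- arrays and 13.16 and 13.03 on the CD8α+ arrays. Knockout arrays read 8.86 and 9.07 in CD8α- cells and 12.49 and 12.60 in CD8α+ cells. Every CD8α+ array was above every CD8α- array. The difference between subsets was 4.81 (SE 0.35, adjusted p = 0.000383) in wild type and 3.58 (SE 0.35, adjusted p = 0.00102) in the knockout.

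The second Cxcl9 probe set (1456907_at) gave the same picture at its own scale. It read 5.13 and 5.67 on the wild type CD8α- arrays and 10.89 and 10.42 on the CD8α+ arrays, and in the knockout 4.81 and 6.10 against 9.40 and 8.92. Its differences were 5.26 (SE 0.45) and 3.71 (SE 0.45), with adjusted p values of 0.000633 and 0.00231. With the knockout arrays fitted alone the knockout difference missed the threshold (adjusted p = 0.0538).

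Cxcl10, which attracts the same Cxcr3-bearing cells and is a near neighbour of Cxcl9 on chromosome 5, was on in every group without a called difference. In the gene order of the RefSeq table (GRCm38.p6) only Art3 lies between Cxcl9 and Cxcl10. Cxcl10 read 7.67 and 8.12 on the wild type CD8α- arrays and 8.67 and 8.26 on the CD8α+ arrays. The knockout values were 8.09 and 7.62 in CD8α- cells and 7.67 and 7.73 in CD8α+ cells. The differences between subsets were 0.57 (SE 0.26, adjusted p = 0.223) in wild type and -0.16 (SE 0.26, adjusted p = 0.719) in the knockout. The third Cxcr3 ligand, Cxcl11, was below 5 on 7 of 8 arrays.

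The 250 bases before the start sites of Cxcl9 and Cxcl10 are shown because these near neighbours share a receptor and Cxcl9, not Cxcl10, had a called difference between the subsets. They are from the RefSeq promoter table (GRCm38.p6), minus strand, at chr5:92328080-92328329 and chr5:92348890-92349139, and capitals mark matches to the motifs searched.
Cxcl9: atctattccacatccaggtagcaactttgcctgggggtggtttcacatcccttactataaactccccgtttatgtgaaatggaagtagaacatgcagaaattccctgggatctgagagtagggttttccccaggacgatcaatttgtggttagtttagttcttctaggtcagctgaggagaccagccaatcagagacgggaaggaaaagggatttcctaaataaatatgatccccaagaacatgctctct
Cxcl10: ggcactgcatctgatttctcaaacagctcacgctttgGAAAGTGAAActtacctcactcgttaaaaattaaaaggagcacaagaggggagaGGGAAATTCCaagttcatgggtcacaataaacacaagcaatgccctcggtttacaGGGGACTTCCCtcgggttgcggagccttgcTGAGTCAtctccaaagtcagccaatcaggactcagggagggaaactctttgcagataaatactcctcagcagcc
On either strand the search covered the kappa B consensus bound by NF-kB, the IRF element (GAAA, any 2 bases, GAAA), the GAS element TTCNNNGAA, the Ets-IRF composite (GGAA, any 2 bases, GAAA) and the AP-1 element TGANTCA. The Cxcl10 window held an IRF element 213 bases before the start site, an AP-1 element 74 bases before it and 3 kappa B matches, of which 2 overlap each other. Of 32851 promoter windows of the same length, 2.98% held the IRF element, 6.75% the AP-1 element and 7.25% the kappa B consensus. The Cxcl9 window held none of the motifs in these spellings. Of all windows 7.02% held the GAS element and 2.30% the Ets-IRF composite. The longest run of letters that the windows of these genes share is 11 bases, cagccaatcag.

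Cxcr3, the receptor of Cxcl9 and Cxcl10, also differed between the subsets. It read 7.19 and 8.66 on the wild type CD8α- arrays and 10.64 and 11.21 on the CD8α+ arrays, a difference of 3.0 (SE 0.64, adjusted p = 0.0234). In the knockout it read 7.87 and 9.54 against 11.90 and 12.06, a difference of 3.27 (SE 0.64, adjusted p = 0.0153). Among 13 interferon-gamma-inducible genes tested, 3 were higher and 5 lower in CD8α+ cells of the wild type (median difference -0.31, against 0.02 over all probe sets). The knockout counts were again 3 and 5 (median -0.68, against 0.01). In each genotype the 3 higher genes were Irf8, Iigp1 and Ido1. Irf8 is also among the CD8α+ markers listed above. Ido1 was below 5 on all wild type arrays, at 2.56 to 4.92. It was tested only through the knockout CD8α+ arrays, at 5.11 and 5.62, where it was highest.

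Ccl22 is a ligand of Ccr4 and attracts regulatory T cells. It read 5.26 and 6.04 on the wild type CD8α- arrays and 9.37 and 10.08 on the CD8α+ arrays. In the knockout it read 4.14 on both CD8α- arrays, identical to the last digit, and 9.03 and 7.94 on the CD8α+ arrays. The CD8α+ arrays lay above all CD8α- arrays. The wild type difference was 4.07 (SE 0.44, adjusted p = 0.00156). In the knockout the CD8α- arrays were below 5, so that Ccl22 was at least 11.2-fold higher in CD8α+ cells (adjusted p = 0.00112). Ccl17, the other Ccr4 ligand, was near the lowest values on all arrays, at 2.03 to 2.23, and Ccr4 itself at 1.87 to 2.23.

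Ccl22 is also made by mature dendritic cells, so their markers were set beside it. Of 10 tested (Ccr7, Fscn1, Cd83, Socs2, Relb, Cd200, Cd40, Birc3, Traf1 and Marcksl1) 1 was called in wild type CD8α+ cells, Relb, lower at -1.37 (adjusted p = 0.0150), and the median difference was -0.04. In the knockout Cd200 was higher at 2.84 (adjusted p = 0.00157) and Relb lower at -1.26 (adjusted p = 0.0187), with a median of 0.15. Ccr7 read 9.72 on both wild type CD8α- arrays and 10.22 and 11.58 on the CD8α+ arrays, a difference of 1.18 (SE 0.48, adjusted p = 0.168).

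Cxcl16 is made as a transmembrane protein that can be shed to attract Cxcr6-bearing T cells and also acts as a scavenger receptor. Its first probe set (1418718_at) read 8.35 and 8.38 on the wild type CD8α- arrays and 10.19 and 10.59 on the CD8α+ arrays. In the knockout it read 8.91 on both CD8α- arrays, again identical, and 11.19 and 11.15 on the CD8α+ arrays. The second (1449195_s_at) read 8.91 and 8.67 against 10.48 and 11.02 in wild type, and 7.19 and 7.69 against 10.22 and 10.26 in the knockout. No CD8α- array reached a CD8α+ array on either probe set. The differences were 2.02 (SE 0.19) and 1.95 (SE 0.26) in wild type and 2.26 (SE 0.19) and 2.80 (SE 0.26) in the knockout, with adjusted p values from 0.000594 to 0.00376. Its receptor gene Cxcr6 was below 5 on all arrays, at 2.23 to 4.01.

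The calls on Ccl22, on both Cxcl16 probe sets and on the brighter Cxcl9 probe set held in both genotypes in every alternative fit that tested them, 19 for a gene's brighter or only probe set and 18 for the other Cxcl16 probe set.

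**Figure D3:**
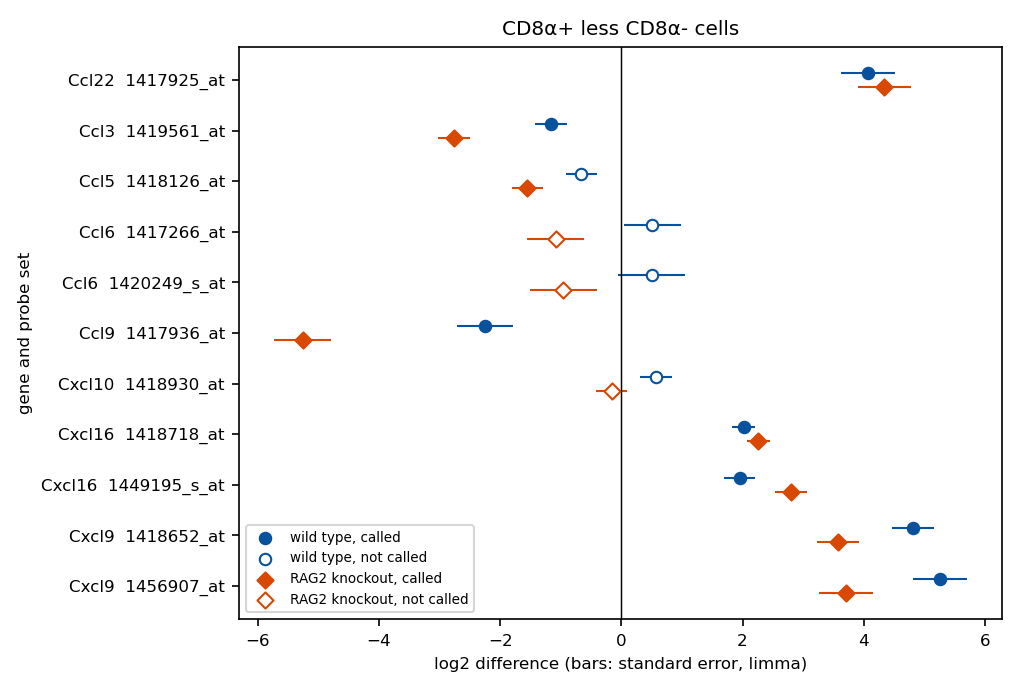
Log2 difference of CD8α+ less CD8α- cells (horizontal axis, bars show the standard error) for the 11 tested probe sets in wild type (circles) and in the RAG2 knockout (diamonds), filled where the adjusted p is under 0.05. Cxcl9, Ccl22 and Cxcl16 lie to the right in each genotype, and Ccl9 lies to the left, at -2.25 in wild type and -5.26 in the knockout.

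Ccl9 was the member that fell furthest in CD8α+ cells. It is a rodent CC chemokine made by myeloid cells that acts through Ccr1. It read 8.77 and 9.21 on the wild type CD8α- arrays and 6.65 and 6.82 on the CD8α+ arrays. In the knockout it read 11.37 and 10.79 in CD8α- cells and 6.55 and 5.07 in CD8α+ cells. All CD8α- arrays were above all CD8α+ arrays. The difference was -2.25 (SE 0.47, adjusted p = 0.0222) in wild type and -5.26 (SE 0.47, adjusted p = 0.000769) in the knockout, a 38.5-fold lower level. The wild type call was lost without any 1 of the 4 wild type arrays (-2.48 to -2.03, adjusted p from 0.0926 to 0.141) and without the filter on dim probe sets (adjusted p = 0.146).

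Ccl6, a related myeloid chemokine whose gene is the next protein-coding gene after Ccl9 on chromosome 11, had no called difference between the subsets. Its first probe set (1417266_at) read 8.51 and 8.98 on the wild type CD8α- arrays and 9.43 and 9.08 on the CD8α+ arrays, and in the knockout 10.03 and 10.14 against 9.76 and 8.24. The knockout CD8α+ arrays lay further apart than the means of the subsets in either genotype. The difference between the subsets was 0.51 (SE 0.47, adjusted p = 0.565) in wild type and -1.08 (SE 0.47, adjusted p = 0.167) in the knockout. The second probe set (1420249_s_at) gave 0.50 (SE 0.55) and -0.96 (SE 0.55), neither called.

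Knockout CD8α+ array 1, the higher of the pair for Ccl6, Ccl9 and Ccl5, was also the one with neutrophil transcripts. That array was the higher as well for Ccl22, the second Cxcl9 probe set and the first Cxcl16 probe set. For Ccl3, Cxcl10 and the other Cxcl9 and Cxcl16 probe sets it was the lower. Without it the first Ccl6 probe set was lower in knockout CD8α+ cells (-1.84, adjusted p = 0.0188) and the second was not called (-1.71, adjusted p = 0.0940). Without both arrays that carried neutrophil transcripts, an alternative added after the data were seen, the second was lower (-2.29, adjusted p = 0.0285) and the first was not called (-1.78, adjusted p = 0.0566). Neither alternative called both. With both arrays left out each knockout group is 1 array, and the fit takes its spread from the wild type groups alone and assumes that the lone arrays vary alike. Counts of members called under it are not given.

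The 250 bases before the start sites of Ccl9 and Ccl6 are shown because these genes are neighbours and Ccl9, not Ccl6, had a called difference between the subsets. They lie on the minus strand at chr11:83578637-83578886 and chr11:83593088-83593337 (RefSeq, GRCm38.p6), with capitals as above.
Ccl9: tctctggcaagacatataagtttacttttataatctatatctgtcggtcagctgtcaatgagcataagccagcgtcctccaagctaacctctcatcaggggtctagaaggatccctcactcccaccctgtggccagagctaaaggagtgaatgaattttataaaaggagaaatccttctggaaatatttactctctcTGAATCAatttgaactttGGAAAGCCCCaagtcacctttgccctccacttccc
Ccl6: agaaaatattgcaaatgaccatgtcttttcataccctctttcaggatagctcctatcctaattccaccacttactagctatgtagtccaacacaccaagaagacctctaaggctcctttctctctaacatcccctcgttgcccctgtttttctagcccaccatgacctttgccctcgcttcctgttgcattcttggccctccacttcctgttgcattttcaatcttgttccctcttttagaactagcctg
The Ccl9 window held a kappa B match on the opposite strand, beginning 35 bases before the start site, and an AP-1 element 53 bases before it, and the Ccl6 window none of the motifs. Their longest shared run was 13 bases, gccctccacttcc. Over the 15 pairs among the 6 members of this set whose windows the table held (Ccl3, Ccl6, Ccl9, Ccl22, Cxcl9 and Cxcl10), the other pairs shared at most 11.

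Ccl5, also called RANTES, recruits T cells, NK cells and monocytes and acts through Ccr1 and Ccr3 among other receptors. Its gene is the protein-coding neighbour of Ccl9 on the other side. It read 13.23 and 13.49 on the wild type CD8α- arrays and 12.56 and 12.85 on the CD8α+ arrays. Knockout arrays read 13.44 and 13.33 in CD8α- cells and 12.15 and 11.52 in CD8α+ cells. The subsets did not overlap in either genotype. The wild type difference of -0.66 (SE 0.25, adjusted p = 0.152) was not called, and that of -1.55 (SE 0.25, adjusted p = 0.00796) in the knockout was. With the knockout arrays fitted alone it missed the threshold (adjusted p = 0.0720).

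Ccl5 is also made by NK and T cells, whose markers were set beside it. The log2 of the summed level of the 13 measured markers was 13.04 to 13.12 in wild type CD8α-, 10.66 to 11.41 in wild type CD8α+, 13.55 to 13.57 in knockout CD8α- and 11.23 to 11.50 in knockout CD8α+ cells. Of the 4 markers tested (Klrd1, Klrk1, Gzma and Nkg7) 1, Klrd1, was lower in CD8α+ cells in each genotype, with levels of 10.18 to 13.47. Klrd1 was the brightest marker on all arrays but knockout CD8α+ array 1, where Gzma read 10.41. On the wild type CD8α- arrays Klrd1 read 13.07 and 12.99, so the sum there was mostly Klrd1. Klrk1 went the other way in each genotype, without a call. In wild type it read 4.12 and 5.24 in CD8α- and 6.54 and 6.82 in CD8α+ cells. Gzma was at -1.37 and -1.03 and Nkg7 at 0.14 and -1.11 between the wild type and knockout subsets, none called. Gzma read 5.51 to 11.53 and was higher in knockout cells of both subsets (3.04, adjusted p = 0.0289 in CD8α- and 3.38, adjusted p = 0.0214 in CD8α+ cells). Klrk1 reached 8.13, on knockout CD8α+ array 1, and Nkg7 reached 7.28, on knockout CD8α- array 2. Klrk1 was also higher in knockout CD8α- cells (1.87, adjusted p = 0.0481) and was not called in CD8α+ cells (1.28, adjusted p = 0.140). Of the other 9 markers 6 (Cd3e, Cd3g, Cd247, Ncr1, Prf1 and Il2rb) were below 5 on all 8 arrays. Cd3d passed 5 on 1 wild type CD8α+ array, and Eomes and Gzmb on knockout CD8α- array 2. Their part in the Ccl5 result was not tested.

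Ccl3, or MIP-1α, a Ccr1 ligand made by activated macrophages and lymphocytes, passed the filter only through the group where it was highest. It read 3.35 and 3.91 on the wild type CD8α- arrays and 2.48 and 2.46 on the CD8α+ arrays, and in the knockout 5.02 and 5.39 against 2.23 and 2.65. All CD8α- arrays were above all CD8α+ arrays, but only knockout CD8α- cells reached log2 5. The subset differences carried adjusted p values of 0.0290 and 0.000937, which describe values mostly below the level taken as on. With values below 5 set to 5 they were 0.00 and -0.20 (adjusted p = 1.0 and 0.450). Ccl4, which lies next to Ccl3 and is usually induced with it, read at most 3.39, on knockout CD8α- array 2.

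The gap between the subsets was not shown to differ between genotypes for any member. The interaction is the knockout difference between the subsets less that of wild type, in which an offset shared by all arrays of a genotype cancels. By limma 0 of 11 members were called, as were 8 of 14609 probe sets (0.0548%, with 0.0342% higher and 0.0205% lower), and limma-trend with robust eBayes also called 0 members. At an unadjusted p under 0.05 there were 6 of 11 members and 1009 of 14609 probe sets, which are not calls. The interaction of Ccl9 was -3.01 (SE 0.67, adjusted p = 0.318), that of Cxcl9 -1.23 (SE 0.50, adjusted p = 0.702) and -1.55 (SE 0.63, adjusted p = 0.705) on its probe sets, and that of Ccl5 -0.89 (SE 0.36, adjusted p = 0.705). Also among the 6 were Ccl3 at -1.60 (SE 0.37, adjusted p = 0.346), with values mostly below 5, and the first Ccl6 probe set. That Ccl6 probe set was at -1.59 (SE 0.66, adjusted p = 0.714). Ccl22, not among the 6, stood at 0.27 (SE 0.62, adjusted p = 0.960).

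The comparison of genotypes asks how chemokine transcripts differ where T and B cells are missing, and it carries any difference in processing with it. In knockout CD8α- cells 5 of 11 probe sets were called, 3 higher (Ccl9, Ccl3 and 1 of Ccl6) and 2 lower (Ccl22 and 1 of Cxcl16). Over all probe sets tested 37.6% were called, 20.2% higher and 17.4% lower, so this share is near the background and is not a result about chemokines. In CD8α+ cells 3 of 11 were called, 1 higher (1 probe set of Cxcl16) and 2 lower (Ccl5 and 1 of Cxcl9), against 35.8% of all, 18.1% higher and 17.7% lower. The arrays of the genotypes did not overlap for 8 of 11 members in each subset, and for 72.9% and 71.5% of all probe sets. These comparisons share arrays with those between the subsets.

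Ccl9 was 4.25-fold higher in knockout than in wild type CD8α- cells, 11.08 ± 0.41 against 8.99 ± 0.31 (mean ± SD, n = 2), a difference of 2.09 (SE 0.47, adjusted p = 0.0149). Without either wild type CD8α- array or without knockout CD8α- array 1 that call was lost (adjusted p from 0.0552 to 0.0945). In CD8α+ cells Ccl9 was at -0.92 (SE 0.47, adjusted p = 0.169), and at -1.66 without knockout array 1 (adjusted p = 0.0260). The first Ccl6 probe set was at 1.33 (SE 0.47, adjusted p = 0.0618) in CD8α- cells, which is not a call, and the second was higher there at 1.78 (SE 0.55, adjusted p = 0.0413). In CD8α+ cells its differences were -0.25 and 0.32.

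Markers of red pulp macrophages and monocytes were higher in the knockout as well. Of 14 such markers tested 13 were higher in knockout CD8α- cells and 11 in knockout CD8α+ cells. The median differences were 2.72 and 2.34, against 0.09 and 0.02 over all probe sets. C1qa, C1qc, Cd163 and Cd5l read 2.08 to 4.85 on the wild type arrays, and Hmox1 was below 5 on all but wild type CD8α+ array 1. These genes were tested only through the knockout arrays, where they were higher, so the counts and medians partly follow from the filter. The log2 of their summed level was 14.35 to 14.79 in wild type CD8α-, 15.79 to 16.00 in knockout CD8α-, 14.08 to 14.37 in wild type CD8α+ and 14.72 to 15.09 in knockout CD8α+ cells. None of the 14 was below 5 on a knockout array, whereas 4 or 5 were on each wild type array. Csf1r, a receptor shared by macrophages and some dendritic cells, was higher by 2.81 (SE 0.20) and 2.72 (SE 0.20). The part of these cells in the Ccl6 and Ccl9 values was not tested, and in bulk RNA more cells of a type and more RNA per cell cannot be told apart.

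**Figure D4:**
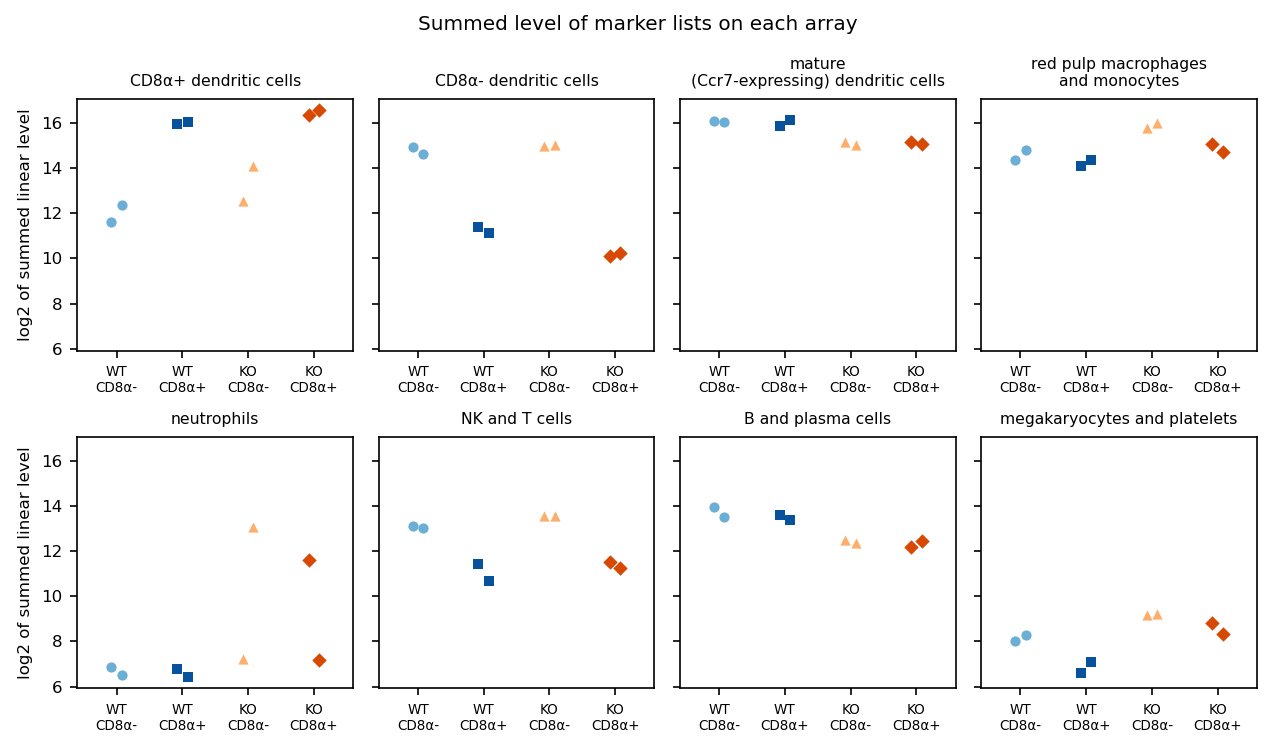
Log2 of the summed linear level (vertical axis) of 8 marker lists on each array, by group (horizontal axis). The neutrophil list stands at 11.62 and 13.08 on 1 array of each knockout group and at 6.43 to 7.22 on the others, and the macrophage and monocyte list is higher in the knockout groups within each subset.

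In CD8α- cells Ccl22 was lower in the knockout, at least 1.57-fold (adjusted p = 0.0341). In CD8α+ cells it was at -1.24 (SE 0.44, adjusted p = 0.0652), which is not a call. With quantile normalization it was called lower there (-1.34, adjusted p = 0.0414), and without knockout CD8α+ array 1 it stood at -1.78. The first call was lost when values below 5 were set to 5 (-0.65, adjusted p = 0.298), without any 1 of the 4 CD8α- arrays (adjusted p from 0.0618 to 0.180), with each array centred on its median (-0.85, adjusted p = 0.140), without the filter (adjusted p = 0.0510) and without both arrays that carried neutrophil transcripts (adjusted p = 0.0871). The Ccl22 call in CD8α- cells was also lost with the replicate number fitted as a block (adjusted p = 0.0507). Of the 10 mature dendritic cell markers 3 were lower in each subset of the knockout, namely Fscn1, Cd200 and Marcksl1. The log2 of the summed level of the list was 15.88 to 16.14 on the wild type arrays and 15.01 to 15.15 on the knockout arrays. Fscn1, the brightest of the list in wild type, read 14.90 to 15.06 on the wild type and 12.02 to 12.83 on the knockout arrays. In each subset 7 markers were not called, among them Ccr7 at 0.08 in CD8α- and 0.16 in CD8α+ cells. The part of these markers in the Ccl22 values was not tested.

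Cxcl16 went in opposite directions on its probe sets between genotypes, though not between subsets. In CD8α- cells the first probe set differed by 0.54 (SE 0.19, adjusted p = 0.0629) and the second by -1.36 (SE 0.26, adjusted p = 0.00868). In CD8α+ cells they differed by 0.78 (SE 0.19, adjusted p = 0.0206) and -0.51 (SE 0.26, adjusted p = 0.168). With arrays centred on their medians the second probe set was at 0.16 in CD8α+ cells, on the side of the first. No direction for Cxcl16 between genotypes can be given. The probe sets of Cxcl9 gave 0.68 and 0.05 in CD8α- cells and -0.55 and -1.50 in CD8α+ cells, of which the last was called (SE 0.45, adjusted p = 0.0394). No genotype call on a member held in every alternative fit. Ccl3 in CD8α- cells stood at 1.58 (SE 0.26, adjusted p = 0.00542), but it was tested only because the knockout arrays of this comparison passed 5, and with values below 5 set to 5 it was at 0.20 (adjusted p = 0.365).

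Ccl5 was at 0.02 (SE 0.25, adjusted p = 0.957) between genotypes in CD8α- cells and lower by 1.83-fold in knockout CD8α+ cells, at -0.87 (SE 0.25, adjusted p = 0.0370). The second value lost its call without any 1 of 7 arrays, knockout CD8α+ array 1 being the exception, with adjusted p values from 0.0502 to 0.152, with arrays centred on their medians (-0.19, adjusted p = 0.557) and with the CD8α+ arrays fitted alone (adjusted p = 0.0931). With the replicate number fitted as a block the Ccl5 call in CD8α+ cells was lost as well (adjusted p = 0.0562). Cxcl10 was at -0.04 (SE 0.26, adjusted p = 0.920) in CD8α- cells and -0.77 (SE 0.26, adjusted p = 0.0576) in CD8α+ cells.

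**Figure D5:**
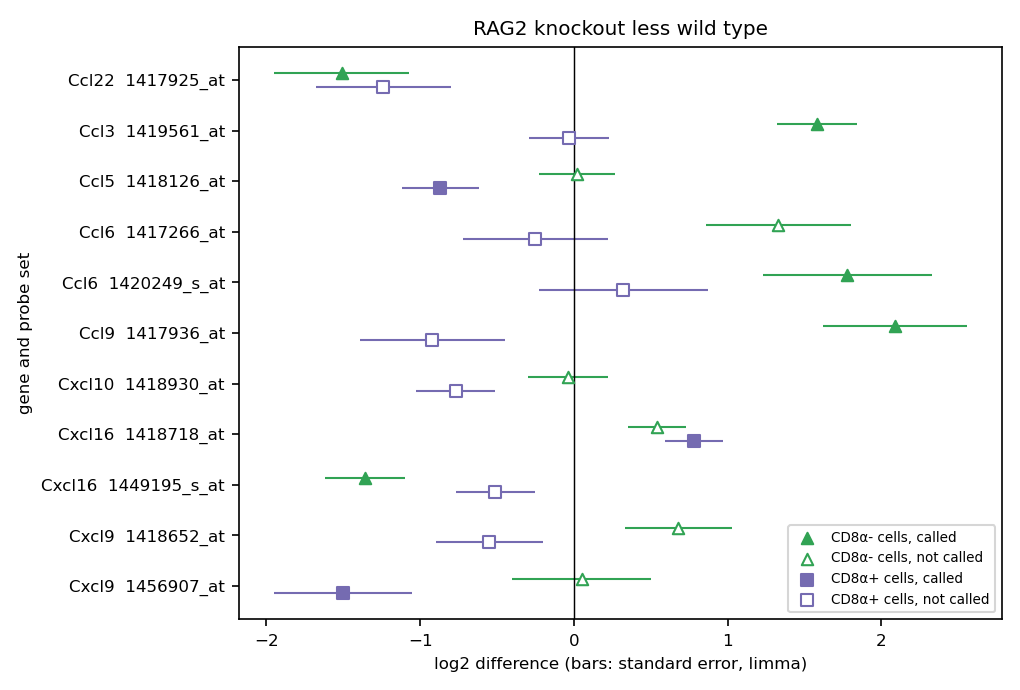
Log2 difference of RAG2 knockout less wild type (horizontal axis, bars show the standard error) for the 11 tested probe sets in CD8α- cells (triangles) and CD8α+ cells (squares), filled where the adjusted p is under 0.05. The points lie on both sides of 0, and the probe sets of Cxcl16 lie on opposite sides.

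Centring each array on its median moved the median difference of all tested probe sets from 0.09 to 0.74 in CD8α- cells and from 0.02 to 0.69 in CD8α+ cells. The share of calls that were higher in the knockout went from 53.8% to 87.8% and from 50.6% to 87.9%, and without the filter it was 36.7% and 35.3%. Of the controls for RNA integrity, the 3′ less the 5′ probe set of Gapdh stood at 3.44 to 5.25 on the wild type arrays and 1.94 to 2.87 on the knockout arrays. That of Actb stood at 1.42 to 2.14 and 0.66 to 1.49, which overlap. Their part in the genotype differences was not tested.

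Set against the ligands, the receptors measured on the same cells were mostly those of ligands that were not on. Of 22 chemokine receptor genes measured 12 were tested. In wild type CD8α+ cells 2 were higher, 3 lower and 7 not called, and in the knockout 3, 4 and 5 (medians 0.02 and -0.36). Among those called, Xcr1, Ccr6, Ackr1 and Ccrl2 passed the filter only through the subset where they were higher. The genes not called include Ccr9, the Ccl25 receptor, in wild type. Xcr1, the Xcl1 receptor of CD8α+ cells, read 6.93 to 10.53 on the CD8α+ arrays and 1.94 to 3.36 on the CD8α- arrays, while Xcl1 read 2.26 to 4.16. Ccr6, the Ccl20 receptor, read 8.39 to 9.85 on the CD8α- arrays and 2.33 to 3.98 on the CD8α+ arrays, while Ccl20 read 2.12 to 2.23. Among textbook pairs of receptor and ligand, 2 had both partners on, Cxcr3 with Cxcl9 and with Cxcl10, and 10 had neither. In 10 pairs the receptor alone was on, among them Cxcr4 with Cxcl12, Cxcr5 with Cxcl13 and Ccr2 with Ccl2. Cxcr5 was on only through the wild type arrays, at 5.48 to 5.88, and read 2.32 to 3.76 on the knockout arrays. Of 7 B and plasma cell markers tested 6 were lower in knockout CD8α- and 7 in knockout CD8α+ cells. Igha, Fcmr and Pou2af1 read 2.29 to 3.90 on the knockout arrays, and Jchain was below 5 on all but knockout CD8α+ array 2. These genes were tested only through the wild type arrays, where they were higher. The part of the B and plasma cell markers in the Cxcr5 values was not tested. In 7 pairs the ligand alone was on, among them Ccr1 with Ccl3, Ccl5, Ccl6 and Ccl9, Ccr4 with Ccl22 and Cxcr6 with Cxcl16.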

How the data were processed

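Biotin-labelled total RNA was hybridised to Affymetrix mouse arrays. The deposited log2 values per probe set were normalized by the authors, with GCRMA and affy named for the wild type arrays and GCRMA for the knockout arrays in the submitters' processing notes. For software versions and for whether all 8 arrays were normalized jointly, the answer is not given in the sources used here. Gene names came from GEO's platform annotation, in which 34958 probe sets had 1 name, 932 several and 9211 none, and all 51 members had a gene ID in the RefSeq table.

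No further normalization was applied. For the 14609 probe sets with 1 gene name that reached log2 5 on 2 or more arrays, limma 3.58.1 (R 4.3.3) fitted group means with eBayes, leaving 4 residual degrees of freedom. Tests were 2-sided, with Benjamini-Hochberg adjustment over all of them, and a call means an adjusted p under 0.05. Fitting probe sets rather than genes keeps each member's own test. SE is the moderated standard error. Where a lower group was below 5 on each array, a fold is a bound against 5. The number of arrays limits the precision.

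Every member that passed the filter is named, and lists use the probe set of a gene with the highest mean. Members, lists, motifs and receptor pairs were chosen with earlier results of these data known. Alternatives were other normalizations, filters, variance models and samples, each array left out in turn and the replicate block. Same-numbered arrays did not deviate together, with correlations across probe sets of -0.181 to 0.0993, so they were not treated as pairs. Some receptor pairs are not reported here. Figures were drawn with matplotlib 3.10.9.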

Additional observations from a re-analysis of the deposited data

How the results depend on the processing

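The number of members called between the subsets stayed within 1.5 times of 7 in wild type and 8 in the knockout in each alternative run, from 5 to 7 and from 8 to 9 with 1 array left out, and the interaction gave 0 throughout. Between genotypes the counts moved. In CD8α- cells, with 5 called, there were 36 without the filter (of 51 tested, 26 of them at the lowest value on each knockout array), 3 with values below 5 set to 5, 3 with 1 probe set per gene and 1 to 6 with an array left out. In CD8α+ cells, with 3 called, there were 34 without the filter and 1 with arrays centred on their medians. There was 1 with the compared groups alone and 1 with the replicate block. Of all probe sets tested, 60.3%, 52.1%, 27.4% and 33.1% were called in these fits, in that order, against 35.8% in the main fit. The replicate block left the counts at 7 and 8 between the subsets and 4 in CD8α- cells between genotypes. The shares of all probe sets tested were 13.1%, 15.6% and 35.6%. An exchange of the replicate numbers in knockout CD8α- cells was added after the data were seen, because the knockout groups correlated at -0.181. It gave 7, 8, 4 and 2, against 13.1%, 16.2%, 35.5% and 33.6% of all probe sets tested. Except where stated, the cause of these shifts was not tested.

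Directions turned only for values that were not called. Ccl3 between the wild type subsets, a call, went to 0.00, without a direction, with values below 5 set to 5. With quantile normalization Ccl5 was at -0.09 between genotypes in CD8α- cells, Ccl3 at 0.28 in CD8α+ cells and Ccl22 at -0.06 in the interaction, where it was at -0.59 with values below 5 set to 5. With arrays centred on their medians Cxcl10 was at 0.62 in CD8α- cells, and Ccl6 at 0.42, Cxcl9 at 0.12, Ccl3 at 0.65 and the second Cxcl16 probe set at 0.16 in CD8α+ cells. Without both knockout arrays that carried neutrophil transcripts Cxcl10 was at 0.20 and the second Cxcl9 probe set at -0.59 in CD8α- cells, Ccl3 at 0.18 and the second Ccl6 probe set at -0.43 in CD8α+ cells, and Ccl22 at -0.27 in the interaction. With 1 array left out, Cxcl10 ranged from -0.40 to 0.07 between the knockout subsets and from -0.27 to 0.20 between genotypes in CD8α- cells, where Ccl5 ranged from -0.11 to 0.15 and the second Cxcl9 probe set from -0.59 to 0.70. In CD8α+ cells Ccl6 ranged from -1.01 to 0.51 and from -0.43 to 1.07 on its probe sets and Ccl3 from -0.24 to 0.18, and in the interaction Ccl22 ranged from -0.27 to 0.82.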

Other observations

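Of the chemokine ligands outside the naming rule, Pf4, a platelet chemokine, was on, at 4.62 to 6.00 over the 8 arrays, and its groups were at 0.01 (SE 0.59) between the wild type subsets and 0.31 (SE 0.59) between the knockout subsets, neither called. Ppbp, another platelet chemokine, read 2.32 to 2.55 on the wild type arrays and 2.77 to 5.26 on the knockout arrays. The platelet and megakaryocyte receptor gene Clec1b read 3.67 to 4.22 on the wild type arrays and 7.88 to 8.72 on the knockout arrays, while Itga2b, Gp9 and Gp5 were below 5 on all arrays. A further 4 probe sets listed a chemokine among several gene names and read 2.23 to 5.31, none of them above 5 on 2 arrays.

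Among receptors not described above, Ccrl2, an atypical receptor of chemerin, read 7.17 and 7.32 on the wild type CD8α- arrays and 3.65 and 3.62 on the CD8α+ arrays, and in the knockout 8.65 and 8.25 against 4.55 and 4.77. Ackr1, an atypical receptor that binds many inflammatory chemokines, read 7.60 to 8.38 on the CD8α- arrays and 3.92 to 4.85 on the CD8α+ arrays. Ackr4, an atypical receptor of Ccl19, Ccl21 and Ccl25, read 7.79 to 8.74 on the wild type arrays and 3.30 to 5.32 on the knockout arrays.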
